A study of Mus musculus with 24 samples.

Results

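Mouse Tardbp and human TARDBP encode TDP-43, an RNA-binding protein, and were followed here transcript by transcript in the frontal cortex of 24 mice. The deposited quantifications hold 149444 transcripts. Of these, 30 are transcripts of mouse Tardbp and 1 is a human TARDBP transcript, and all of them were taken by identity, whatever their level. The mice were littermates from a cross of Grn+/- mice, which have 1 working copy of the progranulin gene, with hTDP mice, which carry a human TDP-43 transgene. The transgene was present in the groups Grn+/-:hTDP+ and Grn+/+:hTDP+ and absent from Grn+/-:hTDP- and from Grn+/+:hTDP-. Each of the 4 groups had 6 mice, 3 females and 3 males. The transgene's promoter, copy number and untranslated parts were not stated in the sources used here. Ages ran from 9.44 to 10.07 months in Grn+/-:hTDP+ mice, 9.44 to 10.07 months in Grn+/+:hTDP+ mice, 8.19 to 10.79 months in Grn+/-:hTDP- mice and 9.44 to 10.79 months in Grn+/+:hTDP- mice. In the Grn+/-:hTDP- group, 4 of the 6 mice had an age found in no other group. The series title names the question, which is how a shortage of progranulin and an excess of TDP-43 interact. The comparisons below give each transgenic group against its nontransgenic group of the same Grn genotype, the Grn genotypes against each other, and the interaction.

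Libraries held 61445842 to 100859149 estimated reads. Grn ranged over 13.8 to 32.9 CPM (reads scaled to the library's size) in the Grn+/- libraries and over 34.7 to 60.5 CPM in the Grn+/+ libraries, so no library went against its Grn label. Of the markers of cortical excitatory neurons, the glutamate transporter gene Slc17a7 ranged over 1560 to 2034 CPM and the kinase gene Camk2a over 2961 to 4261 CPM. Summed markers of olfactory bulb were at 4.0 to 20.3 CPM and those of choroid plexus and ependyma at 4.6 to 19.2 CPM. Summed oligodendrocyte markers ran from 939 to 4200 CPM, with means of 1663 CPM in Grn+/-:hTDP+ and 1948 CPM in Grn+/-:hTDP- mice, and of 2304 CPM in Grn+/+:hTDP+ and 1456 CPM in Grn+/+:hTDP- mice. Their part in the results was not tested. Replicate 2 of Grn+/+:hTDP+ stood apart. Only 40188 of all transcripts had any reads in it, whereas the other 23 libraries had reads on 65994 to 69846. Of the Tardbp transcripts, 9 had reads in it, and 11 to 20 did in each of the others. Transcript results that rest on it are given with and without it.

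TDP-43 binds UG-rich stretches of RNA and acts in splicing, RNA transport and RNA stability. It is known to hold down its own messenger RNA: when the protein is abundant, it binds the 3' untranslated region of its transcript, and splicing and decay of that transcript increase. The last coding exon encodes the glycine-rich C-terminal domain, in which most disease mutations of human TARDBP lie. Nonsense-mediated decay is the pathway that degrades transcripts whose stop codon lies well upstream of a splice junction. Here "decay class" is the label that the annotation gives to a transcript of that form, and no decay was measured.

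Mouse Tardbp lies on the minus strand of chromosome 4 (chr4:148612382-148627019, GRCm38, GENCODE M21). Of its 30 transcripts, 15 are annotated as protein-coding, 10 as decay class and 5 as retained intron or processed transcripts. Tardbp-202 is the full-length messenger, with 6 exons, 7477 bases and a reading frame of 414 codons. In 19 transcripts an intron is removed that begins at one of 3 donors in the coding part of the last exon of Tardbp-202. Tardbp-204, with a reading frame of 295 codons, loses 968 bases there (chr4:148617706-148618673). Tardbp-201, with a frame of 298 codons, loses 959 bases (chr4:148617706-148618664) and also a second intron of 721 bases farther downstream, in the 3' untranslated region of Tardbp-202 (chr4:148616845-148617565). This second intron is removed in 8 transcripts, Tardbp-201 and Tardbp-208 among them, and it puts the stop codon of Tardbp-201 before a splice junction. The splice donors of the first intron lie within the coding sequence of the glycine-rich region. One is used by Tardbp-204 and Tardbp-226, one by Tardbp-201 and Tardbp-205, and one by Tardbp-203, Tardbp-210 and Tardbp-214. The introns of Tardbp-204 and Tardbp-201 end at the same place and differ by 9 bases at their donors. The letters TGTGTG, a UG repeat of the kind that TDP-43 binds, occur 0 times on the transcript strand in the 959-base intron and 2 times, overlaps counted, in the 721-base intron. Neither intron holds them on the opposite strand. For comparison, 43.8% of 19553 stretches of 959 bases and 35.6% of 20747 stretches of 721 bases, each the end of a gene's longest coding transcript, hold them on the transcript strand. A match is a description of the letters and not a binding site.

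**Figure D1:**
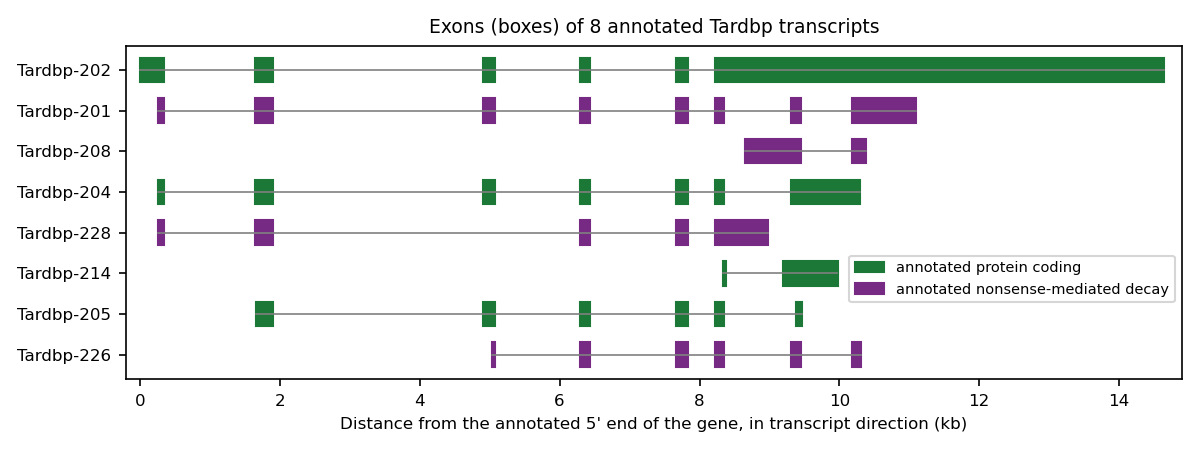
Exons (boxes) and introns (lines) of 8 Tardbp transcripts, 1 in each row, with the distance in kilobases from the 5' end of the gene on the x axis, drawn in the direction of transcription. Colours mark the annotated class. The coding part of the last exon of Tardbp-202 is interrupted in Tardbp-201, Tardbp-204, Tardbp-205, Tardbp-214 and Tardbp-226. In Tardbp-208 that exon is interrupted only by the 721-base intron, in the 3' untranslated region of Tardbp-202.

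Human TARDBP reads were present in every hTDP+ library at about the same level in both Grn genotypes. The human transcript had a lowest, median and highest level of 65.5, 77.5 and 81.2 CPM in Grn+/-:hTDP+ mice, against 70.6, 75.1 and 81.4 CPM in Grn+/+:hTDP+ mice. The ranges overlapped almost fully. The means were 74.8 ± 7.40 CPM in Grn+/-:hTDP+ and 74.9 ± 4.01 CPM in Grn+/+:hTDP+ mice (SD, n = 6 each; exact two-sided permutation p = 0.907). Of the 12 hTDP- libraries, 2 held any human read, at most 2 reads in a library, and a count of 0 allows up to 3 reads, or 0.0358 to 0.0484 CPM, for counting error only. The edgeR log2 difference of Grn+/-:hTDP+ over Grn+/+:hTDP+ was −0.01 (SE 0.0718, adjusted p = 0.998).

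Mouse Tardbp was lower in every hTDP+ library than in any hTDP- library. Its level, summed over all its transcripts, had a lowest, median and highest value of 91.1, 97.7 and 116 CPM in Grn+/-:hTDP+ mice, against 137, 143 and 150.5 CPM in Grn+/-:hTDP- mice. In Grn+/+:hTDP+ mice the values were 96.2, 100.8 and 116 CPM, against 142, 146 and 150.4 CPM in Grn+/+:hTDP- mice. The groups with and without the transgene did not overlap, which held for 0.0274% of the 18239 genes tested in this direction. By mean, the lowest group was Grn+/-:hTDP+ (99.7 CPM), then came Grn+/+:hTDP+ (102.8 CPM), Grn+/-:hTDP- (143.9 CPM) and, highest, Grn+/+:hTDP- (146.1 CPM). The 2 hTDP+ groups overlapped, as did the 2 hTDP- groups. The gene fell by 30.7% in CPM in Grn+/- mice and by 29.6% in Grn+/+ mice. In edgeR's quasi-likelihood test the log2 change was −0.53 (SE 0.0497, adjusted p = 4.55e-06) in Grn+/- mice and −0.51 (SE 0.0497, adjusted p = 1.04e-05) in Grn+/+ mice, and 0.0164% of genes were called lower in each. Averaged over both Grn genotypes it was −0.52 (SE 0.0351, adjusted p = 6.85e-09), where 0.0768% of genes were called lower. With age as a factor, the fit in Grn+/- mice gave −0.54 with an adjusted p of 0.259, and the call was lost. The sizes above hold for CPM, which counts reads whatever the length of the transcript. In TPM, which divides reads by that length before scaling, they differ. There the gene's coding transcripts, a part of the gene that includes short transcripts, averaged 34.0 TPM in Grn+/-:hTDP+ and 79.8 TPM in Grn+/-:hTDP- mice. In Grn+/+ mice they averaged 38.0 TPM with the transgene and 82.6 TPM without it. The full-length Tardbp-202 alone averaged 16.8 TPM in Grn+/-:hTDP+ and 22.4 TPM in Grn+/-:hTDP- mice. Its means in Grn+/+ mice were 17.0 TPM with the transgene and 23.1 TPM without it. None of these values is the level of the whole gene. In bulk tissue, fewer expressing cells and less RNA per cell cannot be told apart.

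Differences in mouse Tardbp between the Grn genotypes, and between the sexes in the transgene effect, did not pass the test. The log2 difference of Grn+/- over Grn+/+ mice was −0.04 with the transgene (edgeR unadjusted p = 0.376; 0.00548% of genes called) and −0.02 without it (unadjusted p = 0.661; 0.011% of genes called). The interaction, the log2 change in Grn+/- mice less the one in Grn+/+ mice, was −0.02 (SE 0.0701, unadjusted p = 0.747), in a comparison where 0.0% of genes were called. The transgene effect was −0.50 in males and −0.54 in females, and the difference of 0.04 had an adjusted p of 0.966 in edgeR. The spread between mice was wider with the transgene: the coefficient of variation of the CPM was 9.24% in Grn+/-:hTDP+, 6.74% in Grn+/+:hTDP+, 3.28% in Grn+/-:hTDP- and 1.90% in Grn+/+:hTDP- mice. This is a description, and the difference in spread was not tested.

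**Figure D2:**
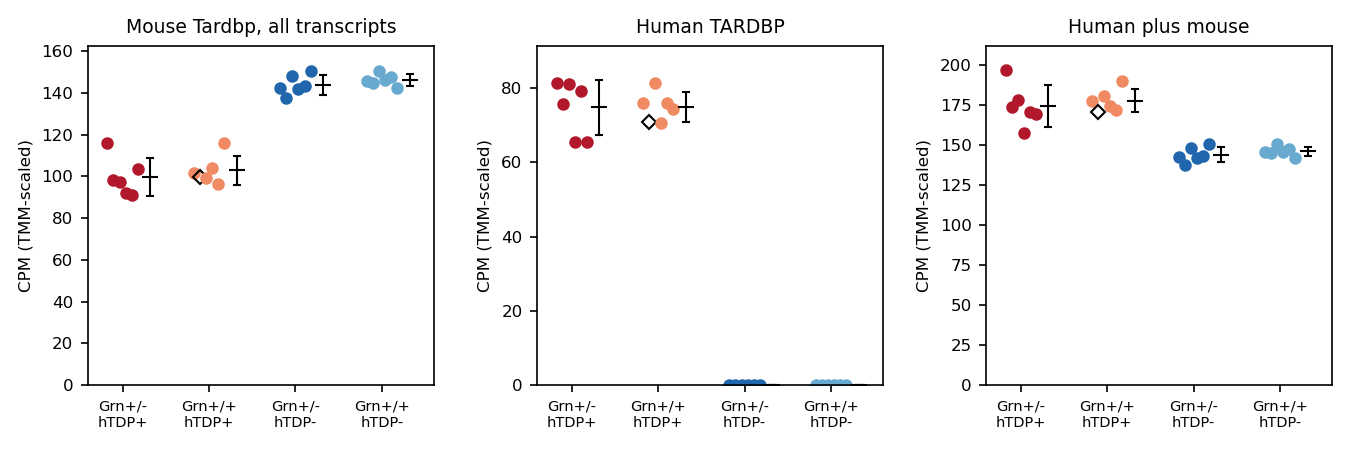
Level of mouse Tardbp, of human TARDBP and of their sum in 3 panels, with the groups on the x axis and CPM on the y axis. Each point is a mouse, bars give the mean and SD of 6 mice, and the open diamond is replicate 2 of Grn+/+:hTDP+. The hTDP+ mice lie between 91.1 and 116 CPM for mouse Tardbp, below all hTDP- mice.

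Whether the human and mouse transcripts together exceeded the nontransgenic level depended on the scale. In CPM, which counts reads whatever the length of the transcript, the sum averaged 174 ± 13.2 CPM in Grn+/-:hTDP+ mice and 144 ± 4.72 CPM in Grn+/-:hTDP- mice (SD, n = 6 each). In Grn+/+ mice it averaged 178 ± 7.13 CPM with the transgene and 146 ± 2.77 CPM without it. These sums were higher by 21.2% and 21.6% in hTDP+ mice, without overlap (exact permutation p = 0.0021645 in each, the smallest that 924 splits can give, n = 6 per group). In TPM, which divides reads by the length of the transcript before scaling, the order was the other way. The sum averaged 106 ± 6.51 TPM in Grn+/-:hTDP+ mice and 127 ± 7.57 TPM in Grn+/-:hTDP- mice, a change of −16.3% (n = 6 per group; exact permutation p = 0.0043). In Grn+/+ mice it averaged 112 ± 8.44 TPM with the transgene and 131 ± 11.6 TPM without it, a change of −14.4% (n = 6 per group; exact permutation p = 0.0087). The TPM ranges overlapped in both. The sum also holds short mouse transcripts, which weigh more in TPM than in CPM. Tardbp-214, of 814 bases, averaged 3.77 TPM in Grn+/-:hTDP+ and 26.6 TPM in Grn+/-:hTDP- mice. In Grn+/+ mice it averaged 7.17 TPM with the transgene and 25.2 TPM without it. The full-length Tardbp-202 averaged 22.4 TPM in Grn+/-:hTDP- and 23.1 TPM in Grn+/+:hTDP- mice. The part of Tardbp-214 in the lower sum was not tested.

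The TPM of the human transcript rests on its modelled length. The authors' files hold a human transcript of 4185 bases, with effective lengths of 3864 to 3893 bases. If the reads of the transgene came from the coding sequence alone (1245 bases with the stop codon), the sum would be 213.8 TPM in Grn+/-:hTDP+ against 126.5 TPM in Grn+/-:hTDP- mice and 221.0 TPM in Grn+/+:hTDP+ against 130.7 TPM in Grn+/+:hTDP- mice, or 69.0% higher in each (exact permutation p = 0.0021645 in each, n = 6 per group). The human transcript made up 32.5 ± 3.41% of the summed TPM in Grn+/-:hTDP+ mice and 31.4 ± 3.86% in Grn+/+:hTDP+ mice at the deposited length (SD, n = 6 each; exact permutation p = 0.582). Over the coding length it would make up 66.4% and 65.2%. Per length, it stood at 2.08 ± 0.318 times the TPM of Tardbp-202, the full-length mouse messenger, in Grn+/-:hTDP+ mice and at 2.08 ± 0.257 times in Grn+/+:hTDP+ mice (SD, n = 6 each). The 12 ratios ranged from 1.62 to 2.50. Mouse reads hardly reached the human row in hTDP- libraries, which carry no transgene and so do not show how reads were assigned where it is present. How many human reads were assigned to mouse Tardbp transcripts in hTDP+ libraries, or mouse reads to the human transcript, was not tested.

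Of the 30 mouse transcripts, 13 passed the filter on low counts and 17 did not. The 17 reached at most 0.557 CPM in any library and at most 0.584% of the gene's reads, and 3 of them had no reads in any library. Of the 13 tested, 2 fell with the transgene averaged over both Grn genotypes, Tardbp-202 and Tardbp-208, and 0 rose (edgeR, 53052 transcripts tested, of which 0.0207% were called lower). By unadjusted p under 0.05, 8 of the 13 passed, as did 5.57% of all transcripts. DESeq2, which gave an adjusted p for 11 of the 13, called 3 lower, Tardbp-204 being the third, and 0 higher, and it called 0.194% of all transcripts lower. Without replicate 2 of Grn+/+:hTDP+, edgeR called 3 lower, again with Tardbp-204 added, where 0.0221% of 54281 transcripts were called lower. Within a single Grn genotype edgeR called 0 of the 13, where 0.00565% of all transcripts were called in each genotype, against 5 in Grn+/- and 6 in Grn+/+ mice at an unadjusted p under 0.05, which 2.06% and 5.21% of all transcripts passed. DESeq2 called 2 lower in Grn+/- and 3 lower in Grn+/+ mice, where it called 0.0754% and 0.0792% of all transcripts lower. Transcript levels carry an error of assignment that the files do not give, because overlapping transcripts share most of their sequence.

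The full-length messenger Tardbp-202 had a lowest, median and highest level of 58.5, 65.0 and 89.9 CPM in Grn+/-:hTDP+ mice, against 82.7, 88.6 and 96.7 CPM in Grn+/-:hTDP- mice. In Grn+/+:hTDP+ mice it had 56.0, 66.3 and 84.7 CPM, against 82.7, 91.4 and 99.4 CPM in Grn+/+:hTDP- mice. A single library in each hTDP+ group reached into the hTDP- range, and the other hTDP+ libraries lay below it. The average log2 change was −0.42 (SE 0.0666, edgeR adjusted p = 0.0122), and −0.39 without replicate 2 of Grn+/+:hTDP+ (adjusted p = 0.0125). Within Grn+/- mice edgeR did not call the transcript on all 24 libraries. Of its fits that left out 1 library, only the one without replicate 1 of Grn+/-:hTDP+, the library at 89.9 CPM, called it lower (log2 change −0.50, edgeR adjusted p = 0.0402). DESeq2 called it lower in Grn+/- mice on all 24 libraries (log2 change −0.40, adjusted p = 0.0171).

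Tardbp-208 is a 2-exon transcript of the decay class that starts inside the last coding exon and has the 721-base intron removed. It had 3.98, 4.81 and 4.97 CPM in Grn+/-:hTDP+ mice (lowest, median, highest), against 6.13, 6.84 and 7.87 CPM in Grn+/-:hTDP- mice. In Grn+/+:hTDP+ mice it had 3.44, 4.38 and 5.10 CPM, against 5.42, 6.69 and 7.80 CPM in Grn+/+:hTDP- mice. All hTDP+ libraries lay below all hTDP- libraries. The average log2 change was −0.60 (SE 0.0730, edgeR adjusted p = 0.000669), close to that of the whole gene. It therefore kept about its share of the reads, with means of 4.66% and 4.80% in Grn+/-:hTDP+ and Grn+/-:hTDP- mice and of 4.21% and 4.50% in Grn+/+:hTDP+ and Grn+/+:hTDP- mice.

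Tardbp-204, the coding transcript that lacks much of the C-terminal domain, had 4.73, 7.27 and 9.98 CPM in Grn+/-:hTDP+ mice, against 13.9, 16.0 and 19.3 CPM in Grn+/-:hTDP- mice. In Grn+/+:hTDP+ mice it had 0.820, 6.84 and 10.7 CPM, against 13.5, 16.3 and 19.1 CPM in Grn+/+:hTDP- mice. The groups did not overlap, and the value of 0.820 CPM belongs to replicate 2 of Grn+/+:hTDP+. With that library the average log2 change was −1.24 (SE 0.237, edgeR adjusted p = 0.0756) and was not called. Without it the change was −1.12 (SE 0.121, adjusted p = 0.000204), and in Grn+/- mice alone it was −1.19 (adjusted p = 0.0180, where 0.00553% of transcripts were called lower). Tardbp-204 took 7.16 ± 1.86% of the gene's reads in Grn+/-:hTDP+ mice and 11.2 ± 1.61% in Grn+/-:hTDP- mice. In Grn+/+ mice it took 6.41 ± 3.20% with the transgene and 11.0 ± 1.55% without it (SD, n = 6 each).

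Tardbp-201, the decay class transcript with both introns removed, was not lower in hTDP+ mice. It had 10.4, 12.6 and 15.8 CPM in Grn+/-:hTDP+ mice, against 9.08, 10.5 and 11.9 CPM in Grn+/-:hTDP- mice, and 11.1, 14.1 and 27.5 CPM in Grn+/+:hTDP+ mice, against 8.95, 10.1 and 12.9 CPM in Grn+/+:hTDP- mice. The ranges overlapped, and 27.5 CPM is replicate 2 of Grn+/+:hTDP+. Its level was not called: the average log2 change was 0.40 (SE 0.111, edgeR adjusted p = 0.679), and 0.29 without that library (adjusted p = 0.499). Its mean level in hTDP+ mice was 1.20 times that of hTDP- mice on the Grn+/- background and 1.47 times on the Grn+/+ background, or 25.1% above it when replicate 2 of Grn+/+:hTDP+ was left out, while the gene as a whole fell.

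Tardbp-228, Tardbp-214 and Tardbp-205 were at 0 in some hTDP+ libraries and above 2.5 CPM in every hTDP- library. Tardbp-228 is a decay class transcript that skips a coding exon (chr4:148621949-148622112). It had 0, 2.24 and 3.77 CPM in Grn+/-:hTDP+ mice, against 5.78, 7.73 and 9.36 CPM in Grn+/-:hTDP- mice, and 0, 2.81 and 5.12 CPM in Grn+/+:hTDP+ mice, against 5.89, 7.42 and 10.6 CPM in Grn+/+:hTDP- mice. No library of one kind overlapped the other, but the log2 change of −1.73 was not called (SE 0.527, unadjusted p = 0.00354, edgeR adjusted p = 0.745). Tardbp-214, a short coding transcript, was at 0 in 4 of 6 Grn+/-:hTDP+ libraries and in 3 of 6 Grn+/+:hTDP+ libraries, and had 5.59 to 8.90 CPM and 5.29 to 8.78 CPM in Grn+/-:hTDP- and Grn+/+:hTDP- mice. Its highest hTDP+ value, 5.68 CPM, is replicate 2 of Grn+/+:hTDP+, the next is 3.34 CPM, and it was not called (adjusted p = 0.855). Tardbp-205, with a frame of 302 codons and the donor of Tardbp-201, had at most 2.96 CPM in hTDP+ libraries and 2.51 to 6.14 CPM in hTDP- libraries, and was not called (adjusted p = 0.879). Of the transcripts tested, Tardbp-204, Tardbp-208 and Tardbp-228 had no overlap between hTDP+ and hTDP- libraries, which held for 0.017% of transcripts in this direction. The decay class transcript Tardbp-226, which uses the donor of Tardbp-204 and lacks the 721-base intron, averaged 1.04 and 0.699 CPM in Grn+/-:hTDP+ and Grn+/-:hTDP- mice and 0.972 and 0.779 CPM in Grn+/+:hTDP+ and Grn+/+:hTDP- mice, and was not called (log2 change 0.45, adjusted p = 0.865). The other 5 tested transcripts averaged at most 1.09 CPM in a group.

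**Figure D3:**
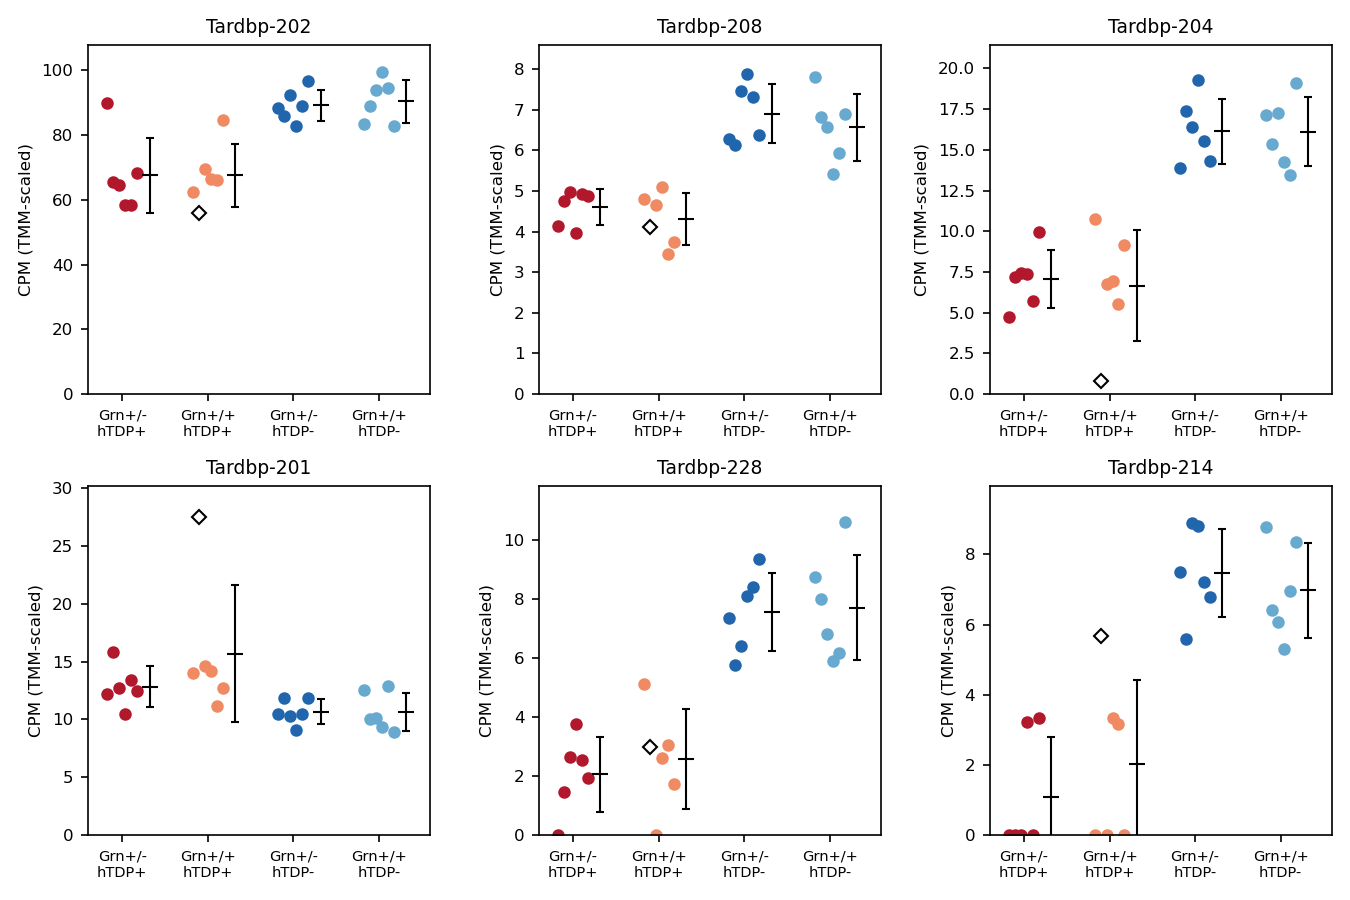
Levels of the main Tardbp transcripts, 1 panel each, with the groups on the x axis and CPM on the y axis. Each point is a mouse, bars give the mean and SD of 6 mice, drawn down to 0 at most, and the open diamond is replicate 2 of Grn+/+:hTDP+. Tardbp-204, Tardbp-208 and Tardbp-228 separate hTDP+ from hTDP- mice, and Tardbp-201 does not.

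The make-up of Tardbp reads shifted towards Tardbp-201. Its share of the gene's reads had a lowest, median and highest value of 10.5%, 12.5% and 16.1% in Grn+/-:hTDP+ mice, against 6.40%, 7.33% and 8.63% in Grn+/-:hTDP- mice. In Grn+/+:hTDP+ mice it was 10.9%, 13.7% and 27.6%, against 6.30%, 6.84% and 8.72% in Grn+/+:hTDP- mice. Every hTDP+ library lay above every hTDP- library (exact permutation p = 0.0021645 in each Grn genotype, n = 6 per group, 1 of 24 share tests, unadjusted). How many transcripts of other genes separate in this way by share was not counted. Without replicate 2, the Grn+/+:hTDP+ libraries reached 14.8% at most and averaged 12.9 ± 1.61%. The share of the full-length Tardbp-202 averaged 67.4 ± 5.09% in Grn+/-:hTDP+ mice and 61.9 ± 1.94% in Grn+/-:hTDP- mice (exact permutation p = 0.0065, n = 6 each). In Grn+/+ mice it averaged 65.5 ± 6.27% with the transgene and 61.9 ± 3.97% without it (exact permutation p = 0.264, n = 6 each). Single libraries moved both differences: without replicate 1 of Grn+/-:hTDP+ the first fell to 3.45 percentage points, against 5.47 with it (exact permutation p = 0.0087), and without replicate 2 of Grn+/+:hTDP+ the second was 5.56 points, against 3.66 with it (exact permutation p = 0.0649). The share of reads in the 8 transcripts without the 721-base intron was 15.4% to 32.5% over the hTDP+ libraries and 11.0% to 14.6% over the hTDP- libraries. The 32.5% is replicate 2 of Grn+/+:hTDP+, and without it the hTDP+ libraries reached 22.1% at most. Their summed level averaged 18.7 and 18.5 CPM in Grn+/-:hTDP+ and Grn+/-:hTDP- mice and 21.2 and 18.2 CPM in Grn+/+:hTDP+ and Grn+/+:hTDP- mice, and without that library the Grn+/+:hTDP+ mean was 18.9 CPM. The 19 transcripts with an intron that begins at one of the 3 donors removed summed to 25.2 and 40.2 CPM in Grn+/-:hTDP+ and Grn+/-:hTDP- mice and to 28.2 and 41.2 CPM in Grn+/+:hTDP+ and Grn+/+:hTDP- mice. These groupings by intron were made after the values were seen, and no test is given.

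The model of transcript usage kept only transcripts holding at least 5% of their gene's reads, which leaves Tardbp-201, Tardbp-202 and Tardbp-204. It compared each with the transcripts kept, so its values are not changes of the share of all Tardbp reads. Usage of Tardbp changed with the transgene averaged over both Grn genotypes (edgeR diffSpliceDGE, Simes adjusted p = 3.63e-07), where 0.152% of 7877 genes were called. Tardbp-201 rose by 0.81 log2 units relative to the transcripts kept (adjusted p = 3.14e-07), Tardbp-204 stood at −0.83 (adjusted p = 0.271) and Tardbp-202 at −0.02. In Grn+/+ mice the adjusted p was 0.000493, with 0.0889% of genes called, and in Grn+/- mice it was 0.244, with 0.0508% called. Without replicate 2 of Grn+/+:hTDP+ all 3 comparisons were called, with adjusted p-values of 4.09e-11, 0.000179 and 0.000128 for the average, Grn+/+ and Grn+/- mice, where 0.189%, 0.101% and 0.113% of genes were called, and Tardbp-204 was then called at −0.73 (adjusted p = 1.71e-05). With a quasi-likelihood fit the average was called (adjusted p = 0.0468, 0.0508% of genes called) and the single genotypes were not (0.508 in Grn+/+ and 1.0 in Grn+/- mice). On all 24 libraries, that fit also called Tardbp-204 for the average (−0.83, adjusted p = 0.0384), as did limma (−1.24, adjusted p = 0.000236). When diffSpliceDGE kept transcripts of at least 1%, Tardbp-201 stood at 0.95, Tardbp-202 at 0.13 and Tardbp-204 at −0.69 for the average. The test of the interaction detected no difference in the transgene effect on usage between the Grn genotypes (adjusted p = 1.0, where 0.0127% of genes were called). For Tardbp-201 the interaction was −0.25 log2 units (diffSpliceDGE unadjusted p = 0.308).

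Summed over the annotation's classes, the shift was small in reads and larger per length. The decay class took 21.0 ± 3.16% of Tardbp reads in Grn+/-:hTDP+ mice and 18.1 ± 0.801% in Grn+/-:hTDP- mice (exact permutation p = 0.0519, n = 6 each). In Grn+/+ mice it took 23.3 ± 6.55% with the transgene and 17.7 ± 1.99% without it (exact permutation p = 0.0411, n = 6 each). Single libraries decided these tests: without replicate 1 of Grn+/-:hTDP+ the first became p = 0.0022, and without replicate 2 of Grn+/+:hTDP+ the second became p = 0.0736 (exact permutation tests, 5 against 6 mice). In TPM the decay class held 47.7% in Grn+/-:hTDP+ and 36.0% in Grn+/-:hTDP- mice, and 47.5% in Grn+/+:hTDP+ and 34.9% in Grn+/+:hTDP- mice (exact permutation p = 0.0021645 in each, n = 6 per group). The level of the class averaged 20.8 ± 1.81 CPM in Grn+/-:hTDP+ and 26.1 ± 1.57 CPM in Grn+/-:hTDP- mice. The ranges there did not overlap, at 18.2 to 23.1 CPM against 24.7 to 28.8 CPM. In Grn+/+ mice it averaged 23.8 ± 6.19 CPM with the transgene and 25.9 ± 2.70 CPM without it. Replicate 2 of Grn+/+:hTDP+ was at 35.4 CPM. The other libraries of its group were at 19.0 to 25.4 CPM, against 22.0 to 30.0 CPM in Grn+/+:hTDP- mice. No test of the level of the class was run. The coding class averaged 78.8 ± 10.5 CPM in Grn+/-:hTDP+ and 118 ± 3.87 CPM in Grn+/-:hTDP- mice, and 78.9 ± 10.2 CPM in Grn+/+:hTDP+ and 120.1 ± 4.63 CPM in Grn+/+:hTDP- mice. Transcripts of the remaining classes took at most 0.51% of the reads in a library.

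**Figure D4:**
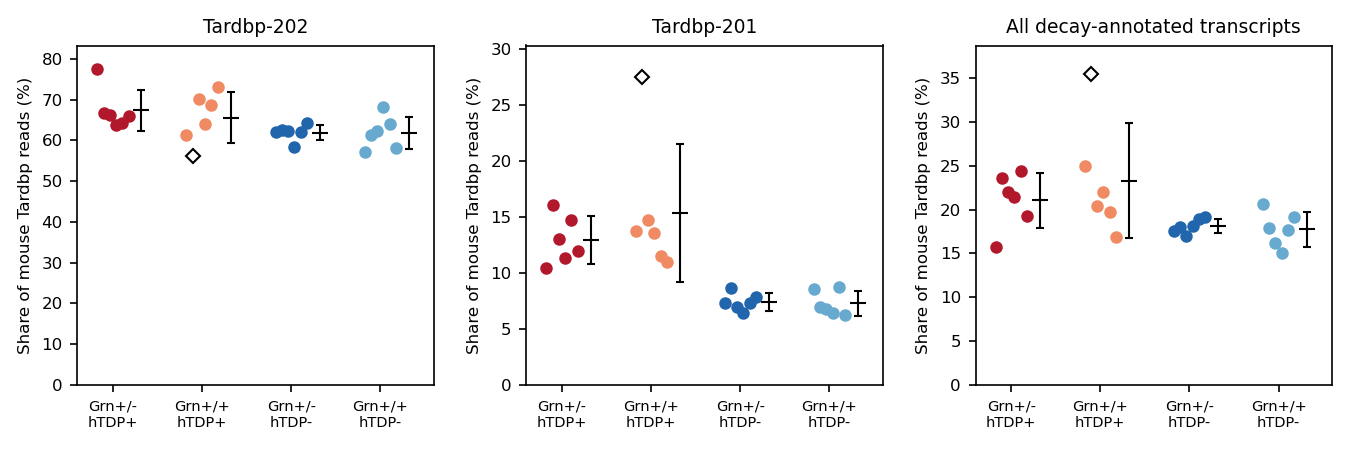
Share of Tardbp reads held by Tardbp-202, Tardbp-201 and the decay class, with the groups on the x axis and percent of the gene's reads on the y axis. Each point is a mouse, bars give the mean and SD of 6 mice, and the open diamond is replicate 2 of Grn+/+:hTDP+. The share of Tardbp-201 lies between 10.5% and 27.6% in hTDP+ mice and between 6.30% and 8.72% in hTDP- mice.

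By Grn genotype no Tardbp transcript was called. Of the 13 transcripts tested, edgeR and DESeq2 each called 0 for Grn+/- over Grn+/+ mice, with and without the transgene, and 0 for the interaction. Over all transcripts edgeR called 0.00377% for the Grn comparison with the transgene and 0.0% for the Grn comparison without it and for the interaction, and DESeq2 called 0.115%, 0.134% and 0.158%. A count of 0 among 13 is thus near the background and shows nothing particular to Tardbp. At an unadjusted p under 0.05 the counts were 0 with the transgene, 0 without it and 1 for the interaction, where 2.9%, 1.77% and 2.15% of all transcripts passed. The exact tests of the shares of reads between Grn genotypes gave no p under 0.44.

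Library by library, the human level did not track the mouse level among hTDP+ mice. Pearson's r between human and mouse CPM was 0.109 over 12 libraries (permutation p = 0.740, adjusted over 4 relations p = 0.740) and Spearman's rho was −0.126 (permutation p = 0.699, adjusted p = 0.730). Leaving out the 2 libraries farthest from the median human level gave r = −0.080. Within Grn+/-:hTDP+ mice r was 0.251 and within Grn+/+:hTDP+ mice it was −0.237 (exact permutation p = 0.697 and 0.635, n = 6 each). In TPM r was −0.322 (permutation p = 0.309, adjusted p = 0.412), and −0.648 without the 2 farthest libraries (permutation p = 0.0469); within Grn+/-:hTDP+ mice it was −0.160 and within Grn+/+:hTDP+ mice −0.772 (exact permutation p = 0.747 and 0.0694, n = 6 each). The range of the human level was narrow, from 65.5 to 81.4 CPM, so a dose relation could be read over that span only. Human level and decay class share had r = −0.187 and rho = −0.112 in CPM (permutation p = 0.578 and 0.730, adjusted p = 0.740 and 0.730). Their r was 0.439 and rho 0.392 in TPM (permutation p = 0.153 and 0.210), so the sign turned with the unit. Without the 2 farthest libraries r was −0.493 in CPM and 0.167 in TPM (permutation p = 0.147 and 0.638). Without replicate 2 of Grn+/+:hTDP+ it was −0.011 in CPM and 0.616 in TPM (permutation p = 0.975 and 0.0430, unadjusted).

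Mouse level and decay class share had r = −0.457 and rho = −0.399 over the hTDP+ libraries (permutation p = 0.144 and 0.199, adjusted p = 0.577 for r). Without the 2 libraries farthest from the median mouse level r was 0.034. The libraries left span a narrower range of levels and include replicate 2 of Grn+/+:hTDP+. The value of r thus depended on which libraries were included. Without replicate 2 of Grn+/+:hTDP+, r was −0.742 and rho −0.50 over 11 libraries (permutation p = 0.00891 and 0.120). Within Grn+/-:hTDP+ mice r was −0.905 (exact permutation p = 0.0181, n = 6) with rho = −0.771 (exact permutation p = 0.103), and within Grn+/+:hTDP+ mice r was −0.396 (exact permutation p = 0.354, n = 6). Over the 12 hTDP- libraries r was −0.207 and rho −0.252 (permutation p = 0.518 and 0.431, adjusted p = 0.740 for r). The share has the mouse level as its denominator, so the measures are not independent.

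**Figure D5:**
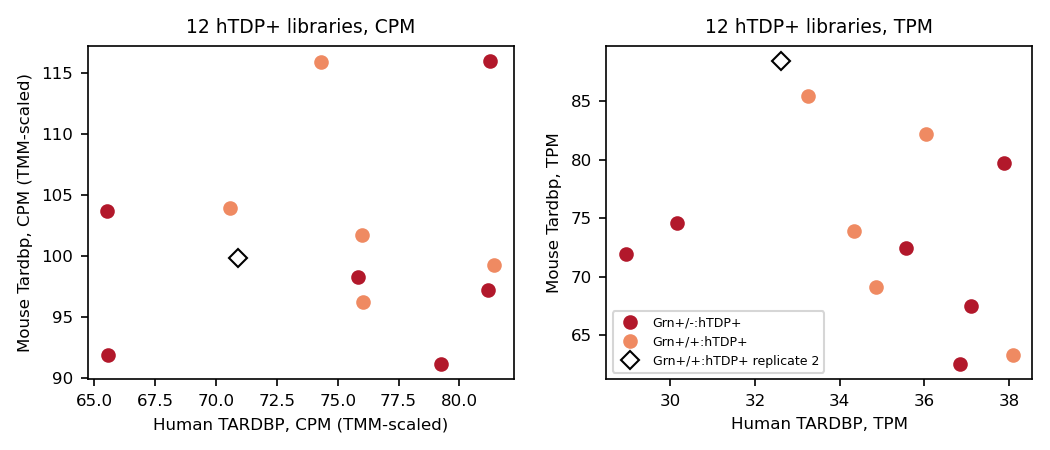
Human TARDBP level on the x axis against mouse Tardbp level on the y axis, in CPM in the left panel and in TPM in the right panel, with 1 point for each of the 12 hTDP+ mice. Grn+/-:hTDP+ and Grn+/+:hTDP+ mice are coloured apart, the open diamond is replicate 2 of Grn+/+:hTDP+, and the axes do not start at 0; r was 0.109 in CPM and −0.322 in TPM.

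Over the 12 hTDP+ libraries, the genes whose log2 CPM followed that of Tardbp most closely among 9541 genes were Pnisr (r = 0.932), which encodes an arginine- and serine-rich nuclear protein, the splicing factor genes Srsf6 (0.920) and Srsf11 (0.919), and Crebzf (0.919), which encodes a leucine zipper transcription regulator. The most opposite were Daam1 (−0.886), a formin, Apcdd1 (−0.857), a Wnt inhibitor, Atp6v1b2 (−0.841), a proton pump subunit, and Csgalnact1 (−0.819), an enzyme of chondroitin sulfate synthesis. Over the 12 hTDP- libraries the closest were different by name: Ddx55 (0.840), an RNA helicase, Sdhaf3 (0.813), an assembly factor of succinate dehydrogenase, Zranb2 (0.803), a splicing protein, and Rab11fip3 (0.779), an endosomal adaptor. The most opposite there were Zfp24 (−0.850), Rsu1 (−0.810), Sf3b4 (−0.795) and Nsa2 (−0.788). The genes closest to the human transcript over the hTDP+ libraries were Camk2g (0.941), a calcium/calmodulin-dependent kinase subunit, Prrt2 (0.926), a presynaptic protein, Atg9a (0.920), an autophagy protein, and Ngef (0.920), a neuronal guanine nucleotide exchange factor. Outer quantiles of r over all 9541 genes were −0.696 and 0.850 for Tardbp over the hTDP+ libraries. They were −0.676 and 0.684 for Tardbp over the hTDP- libraries, and −0.827 and 0.838 for the human transcript. The genes named are thus the ends of a wide spread. These are descriptions over 12 libraries of 1 tissue, and the libraries differ in depth.

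For genes that handle TDP-43 RNA or protein, 7 lists were examined. For the average transgene effect edgeR called 0 members in any list, where 0.11% of all genes were called, so the count is near the background and is no result about these genes. At an unadjusted p under 0.05, 7.86% of all genes passed. The 20 nonsense-mediated decay factors had 15 members above 0 and 5 below, with a median log2 change of 0.02, and 2 were under an unadjusted p of 0.05. The member of smallest p was Pnrc2, which links the decay machinery to decapping, at 28.9 ± 2.32 and 27.4 ± 2.16 CPM in Grn+/-:hTDP+ and Grn+/-:hTDP- mice and at 28.5 ± 2.06 and 26.3 ± 2.18 CPM in Grn+/+:hTDP+ and Grn+/+:hTDP- mice (average log2 change 0.10, edgeR unadjusted p = 0.0394). Of the 14 exosome genes tested, 10 lay above 0 and 4 below (median 0.03). By unadjusted p, 1 of them was under 0.05. It was Exosc5, a core subunit (log2 change 0.15, edgeR unadjusted p = 0.00848). The 18 cleavage and polyadenylation genes split evenly, 9 above and 9 below 0 (median −0.00), with 1 under 0.05 unadjusted. It was Pabpn1, the nuclear poly-A binding protein (log2 change 0.14, edgeR unadjusted p = 0.0343).

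The 10 kinase genes reported to phosphorylate TDP-43 had 3 members above and 7 below 0 (median −0.02, 0 under 0.05 unadjusted). The 12 nuclear import genes had 3 above and 9 below (median −0.02, 3 under 0.05 unadjusted). Among these, Rangap1, the GTPase activator of Ran, was at −0.05 (edgeR unadjusted p = 0.0102) and Kpna1, an importin, at −0.08 (unadjusted p = 0.0139). The 12 genes of TDP-43 degradation had 5 above and 7 below (median −0.00, 0 under 0.05 unadjusted). The 15 genes of RNA-binding partners had 12 above and 3 below (median 0.03, 2 under 0.05 unadjusted), with Hnrnpa2b1 at 0.06 (edgeR unadjusted p = 0.0137, adjusted p = 0.570). DESeq2 also called 0 members of these lists for the average effect. Its count over all genes is given in the closing section on processing, and this 0 is likewise no result about these genes. The median over all 18239 genes was 0.00.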

How the data were processed

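Per the labels' protocols, poly-A RNA of dissected frontal cortex was fragmented and primed with random hexamers; both stranded and unstranded steps are described, so strand is unclear and overlapping antisense reads cannot be set apart. Each library is a separate mouse. Per the file headers, the authors deposited expected counts and TPM per transcript, 1 Salmon table per library. DESeq2, Salmon, SAMtools and STAR appear in the submitters' processing notes with no version. Their genome build and annotation were not stated in the sources used here. The transcripts' identifiers were matched to GENCODE M21 (GRCm38): 138032 of 149443 mouse transcripts (92.4%), and the 11411 others held 1.17% to 1.66% of a library's reads.

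Expected counts were summed per gene or kept per transcript, rounded, and tested with edgeR 4.0.16 (R 4.3.3; quasi-likelihood, TMM, default filter on low counts, 1 term per group and a sex term, all 24 libraries, two-sided, Benjamini-Hochberg over 18239 genes or 53052 transcripts, called under an adjusted p of 0.05). CPM are TMM-scaled, and the prior count behind log2 values was 1. Usage was tested with diffSpliceDGE on a likelihood-ratio fit, for transcripts with at least 5% of their gene's reads. Single values were compared by exact two-sided permutation tests over 924 splits, and relations with 100000 permutations. DESeq2 1.42.0 and limma 3.58.1 gave alternatives, as did other filters, scalings, terms for age, each sex alone and leaving out each library. The tests were tried on simulated data first. Named genes are all Tardbp transcripts, the human transcript, the 4 genes with the highest and the 4 with the lowest correlation with Tardbp and the 4 closest to the human transcript (mean CPM of at least 10), and members of 7 gene lists with the smallest p. Members, lists and tests were chosen with earlier results of these data known. Intervals and floors cover counting error only. Some members of the marker and gene lists and the bases of the splice donors are not reported here.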

Additional observations from a re-analysis of the deposited data

Results flagged for a closer look

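In 4 cases of 66 groups of 6 libraries checked, a single library lay far from the rest by Dixon's criterion (its gap to the nearest other library, as a part of the group's range), which chance gives in about 1 of 20 groups. Replicate 2 of Grn+/+:hTDP+ had 27.5 CPM of Tardbp-201, against 11.1 to 14.6 CPM in the other 5 mice of its group, and 27.6% of Tardbp reads in that transcript, against 10.9% to 14.8%. This library also listed 40188 transcripts above 0, fewer than any other; its part in these values was not tested. Replicate 1 of Grn+/-:hTDP+ had 89.9 CPM of Tardbp-202, against 58.5 to 68.3 CPM in the other 5 mice, and 77.5% of Tardbp reads in that transcript, against 63.7% to 66.6%. That library had the fewest reads of all, 61445842, and 67465 transcripts above 0.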

How the results depend on the processing

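The lower level of mouse Tardbp averaged over both Grn genotypes kept its direction and its call in every fit of the mouse gene that was run. In the fits that left out 1 library, the log2 change was −0.54 to −0.51, a range that does not cover the other fits. Adding the human reads to the gene turned its log2 change to 0.28 on average, in Grn+/- and in Grn+/+ mice. Within Grn+/- mice the call was lost with age as a factor (−0.54), in females alone (−0.58) and in males alone (−0.48), and within Grn+/+ mice in females alone (−0.50), with 3 mice per group in single-sex fits. The sum of human and mouse transcripts turned from lower in TPM to higher by 30.5 CPM in Grn+/- mice and by 31.6 CPM in Grn+/+ mice, and to higher by 87.3 and 90.2 TPM over the coding length of the human transcript. The decay class share in Grn+/- mice differed by 11.8 percentage points in TPM, which passed the test. Tardbp usage within Grn+/- mice was called with transcripts of at least 1% (adjusted p = 0.0181) and by limma without replicate 2 of Grn+/+:hTDP+ (0.000745). Within Grn+/+ mice it was lost with the quasi-likelihood fit (0.508, and 0.791 without that library). The cause of these changes was not tested.

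Counts of called genes moved with the tool. In the order average, Grn+/- and Grn+/+ transgene effects, Grn effects without and with the transgene, and interaction, edgeR called 20, 4, 6, 2, 1 and 0 genes, and DESeq2 called 61, 11, 28, 6, 5 and 3. Age as a factor left 2 genes on average, 0 in Grn+/- mice and 0 for each Grn effect; a linear age term left 2 in Grn+/- mice and 0 for Grn without the transgene. Females alone gave 1 on average and 0 for both transgene effects and both Grn effects; males alone gave 3 on average, 0 and 2 for the transgene effects, 1 for Grn without the transgene and 1 for the interaction. No filter and length-scaled counts each gave 2 in Grn+/- mice and 0 for Grn with the transgene, and total reads gave 1 for Grn without it. Transcripts called were 20, 3, 3, 0, 2 and 0 with edgeR and 193, 85, 92, 71, 61 and 84 with DESeq2. Females alone gave 1 transcript on average and 0 in Grn+/- mice; males alone gave 6 on average, 7 in Grn+/+ mice, 5 and 0 for the Grn effects and 4 for the interaction. Total reads gave 6 in each Grn genotype, no filter 1 in Grn+/- mice and 0 for Grn with the transgene, and linear age 1 for the last. Genes called for usage were 12, 4, 7, 1, 2 and 1; the quasi-likelihood fit gave 4, 0 and 2 for the transgene effects and 2 and 1 for Grn, limma 35, 2 and 25 for the transgene effects, 13 for Grn with the transgene and 2 for the interaction, and transcripts of at least 1% gave 8 in Grn+/- mice, 4 for Grn without the transgene and 2 for the interaction.

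Leaving out 1 library at a time gave 2 to 4 called genes in Grn+/- mice, 0 to 3 for Grn without and 1 to 2 for Grn with the transgene. It gave 13 to 22 called transcripts on average, 1 to 5 in Grn+/- and 1 to 7 in Grn+/+ mice, and 0 to 1 and 0 to 2 for the Grn effects. It gave 8 to 21 genes called for usage on average, 2 to 10 in Grn+/- and 6 to 14 in Grn+/+ mice, 0 to 5 and 2 to 9 for the Grn effects and 0 to 5 for the interaction. Tardbp usage in Grn+/- mice had adjusted p-values of 0.000128 to 0.723. The decay class share differed by 2.28 to 4.01 percentage points in Grn+/- and by 3.07 to 6.78 in Grn+/+ mice, and the coding share by −4.15 to −2.42 and by −6.76 to −3.10; these tests crossed the threshold in 2, 8, 10 and 8 of 12 such fits. The r of mouse level and decay class share was −0.742 without replicate 2 of Grn+/+:hTDP+ and −0.297 without replicate 1 of Grn+/-:hTDP+, and −0.905 within Grn+/-:hTDP+ mice.

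No paired analysis was possible because the labels number individual mice, give no replicate numbers that groups share and do not say which mice share a litter. Some mice of different groups have the same age, and the fit with age as a factor is given above.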
